A study of Mus musculus with 48 samples.

Results

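The genes described here encode the subunits of the glutamate and GABA receptors. They were chosen by symbol from the Q3-normalized tables (Gria, Grin, Grik, Grid and Grm followed by a digit, and every symbol that starts with Gabr), and 41 of 15782 genes matched. Of these, 16 encode ionotropic glutamate receptor subunits (3 AMPA, 6 NMDA, 5 kainate and 2 delta), 8 encode metabotropic glutamate receptors and 16 encode GABA-A receptor subunits. The remaining match, Grid2ip, encodes delphilin, a postsynaptic scaffold protein and no subunit itself, and it was kept because the rule takes it. Gria4, Grin3b, Gabrg1, Gabre and Gabrq were not analysed here.

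The brains came from 12 male C57BL/6 mice that were 10 weeks old at launch, and RNA was measured by GeoMx digital spatial profiling (DSP), in which tagged probes are released by light from a chosen area of illumination (AOI) of a fixed section and counted by sequencing. FLT-SAL mice spent 35 days in space with saline injections, and GC-SAL mice spent the same time on the ground in flight hardware cages with saline. FLT-BuOE and GC-BuOE mice were the flight and ground mice given MnTnBuOE-2-PyP5+ (BuOE), a manganese porphyrin that mimics superoxide dismutase, under the skin at 1 mg/kg in 0.2 mL, starting 7 days before launch and then every week. Each group held 3 mice, and each mouse gave 1 AOI in each of 4 regions, which are labelled CA (Cornu Ammonis 1), DG (dentate gyrus), FCT (frontal cortex) and CT (cortex), so that there were 48 AOIs. Up to 20 h passed between splashdown and arrival of the flight mice, so the flight groups also carry reentry and landing. The sections of each group were on a slide of their own, so slide and group cannot be told apart.

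Glutamate opens AMPA, NMDA and kainate receptors, which are tetrameric cation channels that excite neurons. The metabotropic glutamate receptors signal through G proteins, with group I mostly postsynaptic and groups II and III mostly damping transmitter release. GABA opens GABA-A receptors, which are pentameric chloride channels that inhibit, and the alpha subunit decides much of where the channel sits and how it responds.

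The total probe count of an AOI lay between 322629 and 1579380, with a median of 652040, and the AOIs held 140 to 640 nuclei. The upper quartile of every AOI was 40.02, so the 4 tables share 1 scale. The negative-control probes gave the background, and on that scale it was highest in CA (16.1 to 20.9) and lowest in DG (9.24 to 13.5). The summed granule, CA1 and cortical marker lists followed the region labels, but not every marker in them did. The summed level of 7 dentate granule neuron markers was 364 to 532 in DG and at most 221 elsewhere, and that of 6 CA1 pyramidal neuron markers was 426 to 633 in CA and at most 311 elsewhere. The summed level of 7 cortical projection neuron markers was 302 to 455 in FCT and 311 to 543 in CT, against 206 to 275 in the hippocampal AOIs, although all 7 exceeded 1.5 times background in DG too. Of these, Rasgrf2 had its highest mean in DG (61.6, beside 39.9 in FCT and 46.3 in CT). The granule neuron marker Tdo2 had 21.5 in DG and 22.8 in CA, and the CA1 marker Mpped1 138 in CA and 121 in FCT. The sum of 7 CA2 and CA3 pyramidal neuron markers overlapped between CA (158 to 225) and DG (185 to 225). An AOI holds many cells of several types, so fewer cells of a type and less RNA per cell cannot be told apart.

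Of the 41 genes, 16 were above 1.5 times background in all 48 AOIs, 19 in 24 to 47 AOIs and 6 in fewer than 24. Among the 16 were the 3 AMPA subunits, Grin1, Grin2a, Grin2b, Grik2, Grik5, Grid1, Grm5, Grm7, Gabra4, Gabra5 and Gabrb2. Among those in fewer than 24 AOIs were Gabra6, Gabrr1, Grid2ip, Grik1 and Grm6. Gabra6, the alpha subunit known from cerebellar granule cells, was above that level in 14 AOIs and Grm6, the receptor of retinal ON bipolar cells, in 19.

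The sequence before the transcription start is shown for Grm2, Grik2 and Grik4, members that were higher in DG, and for Grin1, the member described most with flight. RefSeq promoters of build GRCm38.p6 were matched by symbol for 26 of the 41 members, and the 250 bases before the start are given 5′ to 3′ on the gene's strand. Capitals mark GC boxes (GGGCGG, searched on both strands) and E boxes (CANNTG, which reads alike on both strands).
Grm2, chr9:106656110-106656359, minus strand: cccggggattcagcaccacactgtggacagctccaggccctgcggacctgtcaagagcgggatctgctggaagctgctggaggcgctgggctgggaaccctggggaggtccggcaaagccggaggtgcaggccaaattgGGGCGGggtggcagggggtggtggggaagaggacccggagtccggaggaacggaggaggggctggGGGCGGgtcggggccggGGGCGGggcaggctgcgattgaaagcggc
Grik2, chr10:49788755-49789004, minus strand: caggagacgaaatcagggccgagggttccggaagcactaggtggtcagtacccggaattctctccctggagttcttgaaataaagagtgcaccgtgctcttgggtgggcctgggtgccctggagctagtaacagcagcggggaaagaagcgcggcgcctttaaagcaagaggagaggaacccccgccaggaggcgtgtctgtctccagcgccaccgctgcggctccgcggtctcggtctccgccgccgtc
Grik4, chr9:42944372-42944621, minus strand: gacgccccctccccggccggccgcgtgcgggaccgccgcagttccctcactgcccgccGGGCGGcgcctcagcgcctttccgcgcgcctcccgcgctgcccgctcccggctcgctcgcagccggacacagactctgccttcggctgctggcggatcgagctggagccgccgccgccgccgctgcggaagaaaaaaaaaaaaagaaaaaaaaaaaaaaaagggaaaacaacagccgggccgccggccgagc
Grin1, chr2:25319188-25319437, minus strand: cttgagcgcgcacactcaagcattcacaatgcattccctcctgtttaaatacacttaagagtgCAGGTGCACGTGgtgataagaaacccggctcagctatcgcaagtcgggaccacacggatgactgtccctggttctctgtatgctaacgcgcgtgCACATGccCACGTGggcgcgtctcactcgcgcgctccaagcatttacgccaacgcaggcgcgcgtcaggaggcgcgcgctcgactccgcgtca

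The Grm2 window held 3 GC boxes, the Grik4 window 1 and the Grik2 window none, and none of the 3 held an E box. The Grin1 window held 4 E boxes and no GC box. Over all members matched, 14 of 26 windows (53.8%) held a GC box and 12 (46.2%) an E box, beside 32.9% and 66.0% of 27025 windows of all genes. The members' windows were also richer in G and C, with a median of 61.6% beside 52.0%.

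The first comparison asked how the receptor classes differ between the 4 regions, with each mouse compared with itself. A gene was called when its adjusted p (limma, Benjamini-Hochberg over 15782 genes) was under 0.05 and it changed by more than 1.5-fold in either direction (the fold threshold), and all differences are of log2(Q3-normalized count + 1). In all, 15 of the 41 members were called in at least 1 of the 6 pairs of regions, with 46 calls. The share of all genes called in at least 1 pair is not given here, so only the counts by pair have a share beside them. CA differed from DG in 6 members, where 4.1% of all genes were called. CA differed from FCT in 6 members (3.28% of all genes) and from CT in 7 (3.98%). DG differed from FCT in 14 members (4.54%) and from CT in 13 (5.79%). FCT and CT differed in none, where 0.101% of all genes were called, and 6 members had an unadjusted p under 0.05, beside 8.43% of all genes. The median difference over the 41 members was between -0.05 and 0.06 in the 6 pairs, beside -0.01 to 0.07 over all genes.

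**Figure D1:**
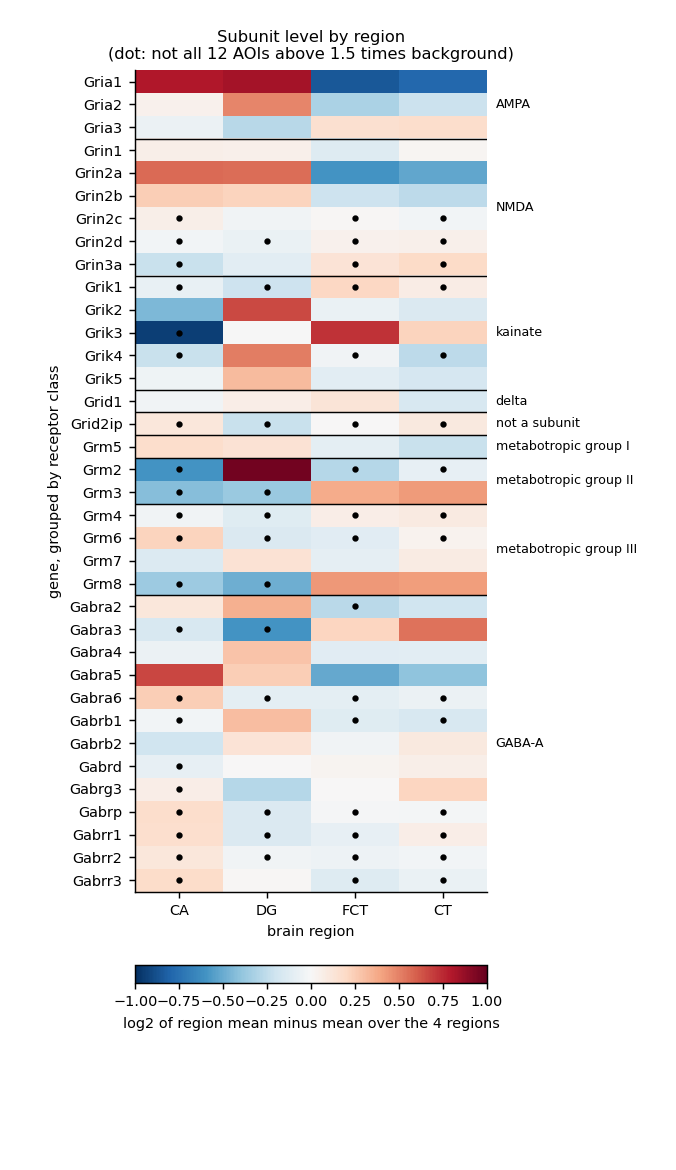
Level of 36 of the 41 genes (rows, grouped by receptor class) in each region (columns), as the log2 mean over 12 mice minus the gene's mean over the 4 regions; a dot marks a region where not all 12 AOIs exceeded 1.5 times background. Gria1 and Grin2a stand high in CA and DG, Grm2 and Grik2 in DG alone, Grik3 low in CA, and Grm3 and Grm8 high in the cortical regions.

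Among the AMPA receptor genes, which carry most fast excitation, Gria1 was the member with the widest regional gap of all 41 on the deposited values, but not after background was subtracted. Its Q3-normalized count was 207.8, 270.8 and 310.5 in CA (here and below the lowest, median and highest of 12 mice) and 215.3, 271.1 and 319.4 in DG. In FCT it was 58.6, 80.6 and 117.6, and in CT 61.8, 84.8 and 117.0. Every hippocampal AOI therefore exceeded every cortical AOI. The log2 difference was 1.67 (SE 0.076, adjusted p = 2.6e-37) between CA and FCT, 1.60 between CA and CT, 1.70 between DG and FCT and 1.63 between DG and CT.

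Gria2, the subunit that makes AMPA channels impermeable to calcium, followed Gria1 only in part. Its level was 215.1, 279.6 and 364.0 in DG, and 163.3, 208.7 and 251.2 in CA. FCT had 128.7, 161.7 and 200.1, and CT had 152.1, 172.9 and 206.8. DG exceeded FCT by 0.80 (SE 0.065, adjusted p = 1.2e-19) and CT by 0.69, without overlap. Between CA and DG the difference was -0.44, under the fold threshold. Gria3, the third AMPA subunit gene measured, had a mean of 72.6 in DG and 84.6 in CA, rising to 98.4 for FCT and 99.5 for CT, and was not called between any regions.

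NMDA receptors need glutamate, a co-agonist and depolarization together, and Grin1 encodes the subunit that every such channel contains. Its mean over 12 mice was 274 ± 51.9 (SD, n = 12) in CA. The DG mean was 273 ± 47.6, the FCT mean 241 ± 52.4 and the CT mean 268 ± 47.3. These ranges overlapped throughout, and the widest gap, 0.20 between CA and FCT (adjusted p = 0.022), was under the fold threshold. Grin2a encodes a GluN2 subunit that becomes common as synapses mature. Its level was 298.1, 339.8 and 442.2 in CA and 295.2, 357.0 and 416.1 in DG, beside 111.5, 163.8 and 189.5 in FCT and 140.4, 167.1 and 190.6 in CT. No hippocampal AOI overlapped a cortical one, and the log2 difference was 1.17 (SE 0.066, adjusted p = 4.2e-30) between CA and FCT and 1.09 between CA and CT. Grin2b, which encodes the other main forebrain GluN2 subunit, had means of 219, 216, 160 and 154 in CA, DG, FCT and CT, with no pair past the fold threshold. Grin2c, Grin2d and Grin3a stayed between 22.3 and 30.3 in every region mean and were not called.

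The kainate receptor genes split the regions differently, and 3 of the 5 were called. Grik2, a subunit that can form a channel alone, was 85.6, 102.2 and 125.1 in DG and 41.9, 47.3 and 54.4 in CA, with FCT at 52.8, 62.1 and 78.6 and CT at 51.6, 59.3 and 68.0. Every DG AOI exceeded every other AOI, and CA was lower than DG by a log2 difference of -1.10 (SE 0.080, adjusted p = 1.2e-22). Grik4, which encodes a high-affinity subunit that needs such a partner, was also higher in DG, with a mean of 36.6 ± 8.63 (SD, n = 12) beside means of 21.6 for CA, 24.7 for FCT and 20.99 for CT. Grik4 in DG exceeded CT by 0.77 (adjusted p = 4.3e-07) and CA by 0.76, with overlapping AOIs. Its median was 1.09 times background in CA, where 2 of 12 AOIs passed 1.5 times. In CT it was 1.36 times background, and 3 of 12 AOIs passed.

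Grik3 set CA apart from DG as well as from the cortex, and its DG AOIs overlapped those of both cortical regions. It was lowest in CA at 17.7, 25.1 and 33.1, and was 35.0, 51.1 and 58.0 in DG, 41.1, 56.2 and 81.5 in CT and 38.6, 82.9 and 136.9 in FCT. Every CA AOI was below every AOI of the other regions, with a log2 difference of -1.65 (SE 0.106, adjusted p = 3.9e-26) from FCT and -0.96 from DG. In CA the median of Grik3 was 1.38 times background, and 4 of 12 AOIs passed 1.5 times. FCT and CT differed in Grik3 by 0.48 (adjusted p = 0.0039), which is under the fold threshold. It was 1 of 2 members with an adjusted p under 0.05 in that pair, beside 0.982% of all genes. Grik5 had means of 100, 129, 95.6 and 91.7 in CA, DG, FCT and CT, and Grik1 stayed between 18.5 and 24.9. Neither was called, and the delta gene Grid1 was not called either.

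Among metabotropic receptors, the 2 group II genes had opposite patterns. Grm2, a receptor that damps glutamate release and is known from granule cells and their mossy fibres, was 51.1, 64.3 and 86.3 in DG, where no AOI overlapped another region. CA had 14.8, 21.7 and 29.5, FCT had 17.5, 27.5 and 35.6, and CT had 20.6, 31.6 and 47.8. CA was lower than DG by a log2 difference of -1.57 (SE 0.114, adjusted p = 1.2e-22), the widest gap of any member between the hippocampal regions. In CA the median of Grm2 was 1.16 times background and 1 of 12 AOIs passed 1.5 times, so the size of this difference depends on how background is treated. Grm3, which astrocytes also express, was 33.0, 47.5 and 56.3 in FCT and 32.3, 50.2 and 71.0 in CT, and 20.0, 25.3 and 34.8 in CA and 17.5, 26.8 and 34.5 in DG. The cortical regions were higher in all 4 pairs, by 0.75 to 0.85. In CA the median of Grm3 was 1.41 times background, and 5 of 12 AOIs passed 1.5 times. The summed level of 7 astrocyte markers was 453 to 691 in FCT and 543 to 746 in CT, beside 385 to 536 in CA and 377 to 520 in DG. The list did not move as one. Slc1a2 had means of 161, 178, 266 and 304 in CA, DG, FCT and CT and Aldoc of 89.0, 82.0, 118 and 151, while Gfap went the other way with 55.0, 50.5, 29.8 and 24.6, as did Aqp4 with 27.7, 27.6, 22.9 and 25.6. Their part in the Grm3 difference was not tested.

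In group I, Grm5 had means between 62.8 in CT and 82.8 in CA and was not called. In group III, Grm8 was called higher in the cortex, at 32.0, 43.6 and 66.4 in FCT and 25.8, 42.8 and 59.1 in CT beside 14.7, 23.7 and 43.0 in CA and 13.8, 22.9 and 32.5 in DG. The log2 difference between DG and FCT was -0.94 (SE 0.116, adjusted p = 3.8e-11), and the ranges overlapped. In CA the median of Grm8 was 1.22 times background, and 3 of 12 AOIs passed 1.5 times. Grm4, Grm6 and Grm7 were not called.

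Among the GABA-A subunit genes, Gabra5, whose channels are known for tonic inhibition outside the synapse, was 68.1, 102.8 and 126.0 in CA and 56.0, 72.1 and 84.2 in DG, beside 20.6, 44.5 and 56.7 in FCT and 34.4, 46.2 and 59.1 in CT. CA exceeded FCT by a log2 difference of 1.21 (SE 0.094, adjusted p = 1.1e-20) and CT by 1.06, without overlap.

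Gabra3 was lowest in DG, at 13.96, 21.4 and 25.9, while CA had 17.8, 27.4 and 48.7, FCT had 24.6, 38.6 and 45.5, and CT had 32.0, 42.7 and 97.2. It differed by -1.10 (adjusted p = 2.6e-13) between DG and CT and by -0.82 between DG and FCT. Gabra2 went in the other direction and was higher in DG than in FCT by 0.67 (adjusted p = 1.7e-07). Gabra4, Gabra6, Gabrb1, Gabrb2, Gabrg3 and the delta, pi and rho subunit genes were not called.

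**Figure D2:**
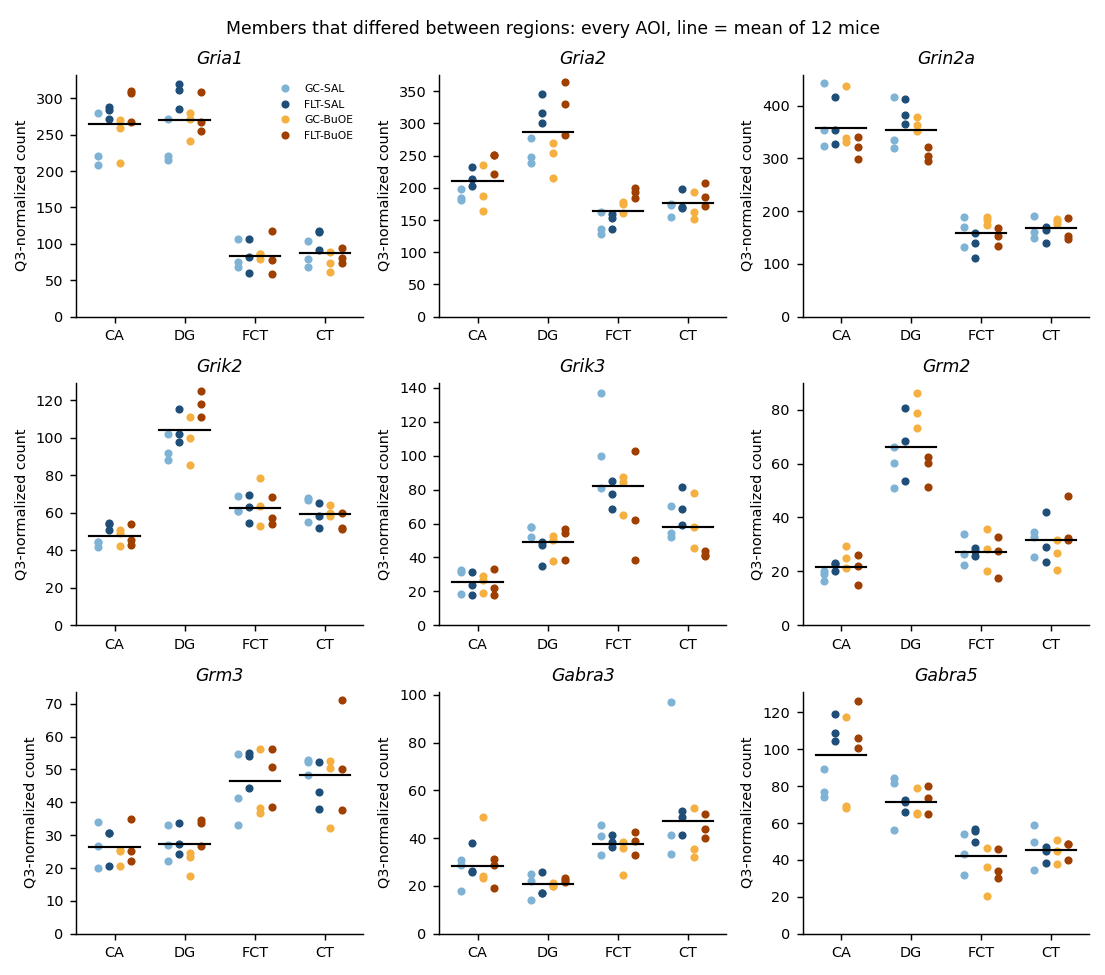
Q3-normalized counts of 9 members in every AOI, by region on the horizontal axis, with a point for each mouse coloured by group and a line at the mean of 12 mice. All CA and DG points of Gria1 and Grin2a lie above all cortical points, those of Grik2 and Grm2 in DG lie above all others, and Grik3 in CA lies below all others.

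Several GABA-A subunit genes lie in clusters, and the position of 1 cluster is given here from GENCODE vM21 (GRCm38) by symbol, since the files name no genome build. On chromosome 5 (chr5:70957597-72149037), Gabra2, Gabra4 and Gabrb1 all had their highest mean in DG, at 47.9, 54.3 and 34.3, and Gabra2 alone was called. Clustered genes did not always share a region. In the cluster on chromosome 7, Gabra5 had its highest mean in CA (96.8) and Gabrg3 in CT (39.9).

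Background differs between regions, and it bears on the weakly detected members. After the negative-control value of each AOI was subtracted, an alternative chosen after seeing the data, the median of all genes moved to -0.48 between CA and DG, to -0.22 between CA and CT, to -0.29 between CA and FCT, to 0.05 between FCT and CT, to 0.28 between DG and CT and to 0.21 between DG and FCT. The calls rose to 20 members for CA against DG (38.4% of all genes), 13 for CA against CT (15.4%) and 15 for CA against FCT (17.4%). Relative to those medians, 8, 9 and 11 members stayed beyond the fold threshold. The share of all genes that did so is not given here, so these counts show no excess of members. All members called on the deposited values were called after subtraction too, in the same direction. The difference of Grm2 between CA and DG was then -2.87 and that of Grik3 between CA and FCT -2.75, both wider than the 1.86 of Gria1 between DG and FCT.

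**Figure D3:**
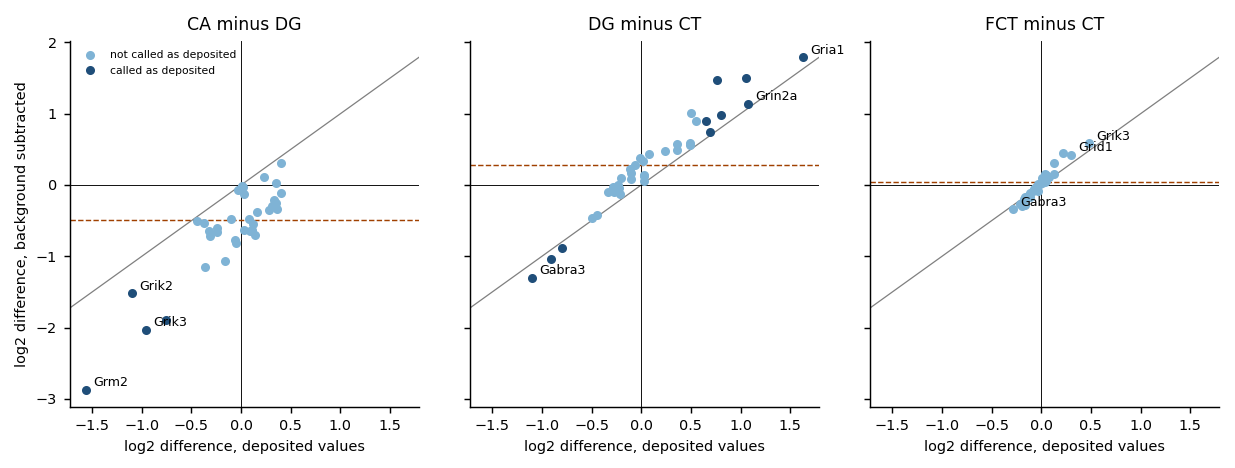
Log2 difference of 36 of the 41 genes between regions on the deposited values (horizontal) and after the negative-control value was subtracted (vertical), for 3 pairs of regions, with called genes dark, the line of equality in grey and the median of all genes after subtraction dashed. The points of CA minus DG sit below the line of equality around a median of -0.48, those of DG minus CT sit mostly above it around 0.28, and those of FCT minus CT lie near it.

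Partners of the receptors were also compared by region. Of all genes, 4.1% were called between CA and DG, 3.28% between CA and FCT and 3.98% between CA and CT. The shares were 4.54% between DG and FCT and 5.79% between DG and CT. Of 14 auxiliary subunits of AMPA and kainate receptors, 5 were called between CA and DG (2 higher and 3 lower in CA), 5 between CA and FCT (4 higher and 1 lower in CA) and 6 between DG and FCT (5 higher and 1 lower in DG). Cnih2, which slows AMPA channel closing, was higher in CA than in FCT by 1.54, and Cacng8, a transmembrane AMPA regulator abundant in hippocampus, by 1.19. Of 23 glutamate postsynaptic scaffold genes, 6 were called between CA and DG and 5 between DG and CT, 1 of them higher in DG (Camk2b, 1.48) and 4 lower, among them Homer1 at -1.29. Of 12 GABA postsynaptic scaffold and trafficking genes, none was called between CA and DG and 1 between DG and CT. Of 5 genes of the metabotropic GABA receptor, Kctd12, an auxiliary subunit, was higher in DG than in FCT by 1.28, and Gabbr2 was lower in CA than in DG by -0.72. Of 16 genes measured for transmitter synthesis and transport, 4 were lower in CA than in CT, among them Slc1a2, the astrocyte glutamate transporter, at -0.93. None of the 5 lists held a call between FCT and CT, where 0.101% of all genes were called.

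The second comparison asked what flight changed in mice given saline. Of the 41 members, 1 was called in any region, where the shares of all genes called were 0.266% for DG, 0.139% for CA, 0.0887% for CT and 0.0507% for FCT, and none in the mouse means (0.101%). Gria3 (chrX:41400854-41678601, GRCm38) was higher in DG of FLT-SAL than of GC-SAL mice. In DG its level was 99.3, 89.4 and 93.6 in the FLT-SAL mice and 48.3, 56.8 and 63.0 in the GC-SAL mice, which did not overlap. With BuOE it was 61.7, 77.5 and 82.3 in the FLT-BuOE mice and 63.4, 63.8 and 72.3 in the GC-BuOE mice, which did overlap. The log2 difference in saline mice was 0.74 (SE 0.157, adjusted p = 0.0117 in limma), with edgeR and DESeq2 adjusted p-values of 0.0025 and 0.0033. Without FLT-SAL mouse 1 the adjusted p was 0.114, without FLT-SAL mouse 3 it was 0.0873 and without GC-SAL mouse 1 it was 0.140, so each of these 3 mice decides the call. Over both treatments the difference in DG was 0.44 (adjusted p = 0.0438), under the fold threshold.

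The Gria3 difference was 0.14 (SE 0.157) between FLT-BuOE and GC-BuOE, and the limma test of the difference between both flight effects gave -0.60 (SE 0.222, unadjusted p = 0.0089, adjusted p = 0.647). It was 0.49 in CT, 0.22 in CA and 0.09 in FCT between FLT-SAL and GC-SAL, with adjusted p-values from 0.781 to 0.989. Markers of several cell types and depth moved with the result. In DG, the summed level of the 7 granule neuron markers was 478 to 532 in FLT-SAL and 364 to 431 in GC-SAL, all 7 were above 0 in the contrast and 1 of them was called. That of 7 GABAergic interneuron markers was 241 to 287 in FLT-SAL and 199 to 228 in GC-SAL (6 of 7 above 0), and that of the 7 astrocyte markers was 466 to 520 and 377 to 422 (5 of 7 above 0). The other marker lists had median differences under 0 in this contrast. The lowest were -0.22 for thalamus (1 of 3 markers above 0) and -0.20 for CA1 pyramidal neurons (2 of 6) and for microglia (1 of 5). Total counts of those AOIs were 965868 to 1372780 in FLT-SAL and 496732 to 767199 in GC-SAL, and their nuclei 545 to 640 and 477 to 528. The part of these in the Gria3 difference was not tested.

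**Figure D4:**
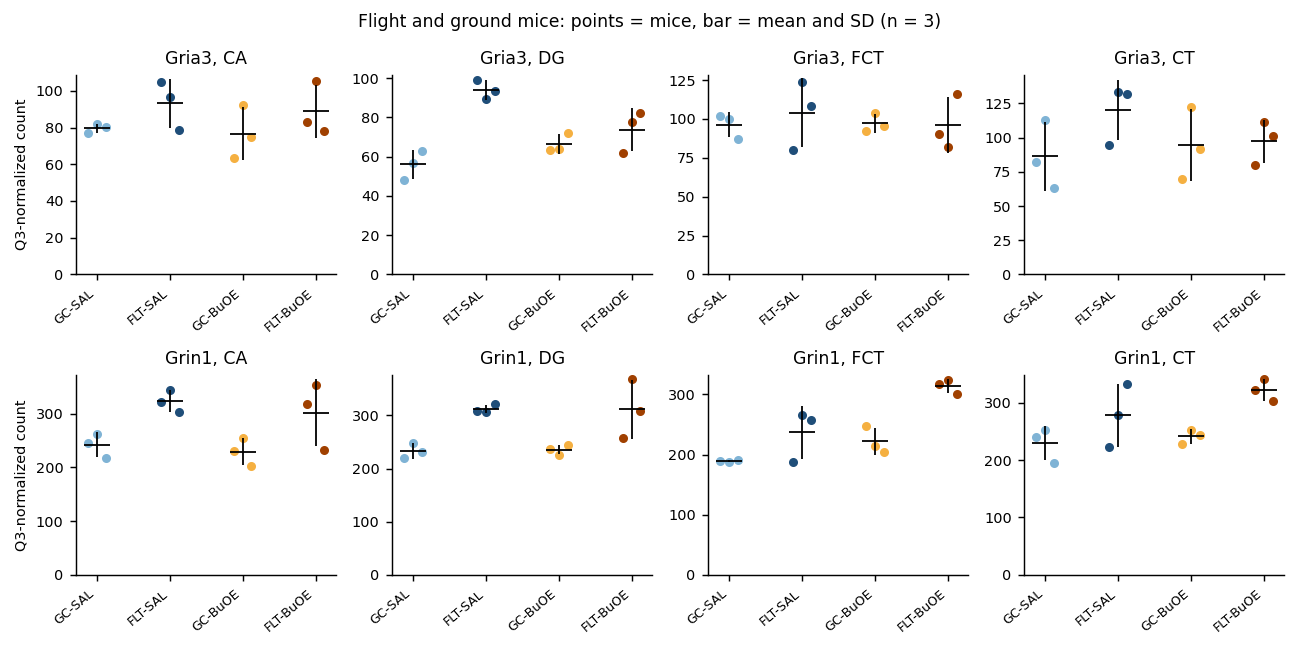
Q3-normalized count of Gria3 (top) and Grin1 (bottom) in each region, with a point for each mouse by group on the horizontal axis and the mean and SD of 3 mice. Gria3 in DG of the FLT-SAL mice lies at 89.4 to 99.3 above all GC-SAL mice, and the mean of Grin1 is higher in the flight than in the ground group in all 4 regions under both treatments.

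In DG, 10 of the 41 members had an unadjusted p under 0.05 between FLT-SAL and GC-SAL, beside 7.41% of all genes, and all 10 were higher in flight. They included the 3 AMPA genes, Grin1, Grik5, Grm5 and the GABA-A gene Gabra4, with log2 differences from 0.29 (Grik5) to 0.74 (Gria3). Beside Gria3, none passed the adjustment. Groups did not overlap in 14 of the 41 members, beside 14.8% of all genes. Between FLT-BuOE and GC-BuOE no member was called in CA (0.0444% of all genes), DG (0.108%), FCT (0.019%), CT (0.0127%) or the mouse means (0.0887%). There, in DG, 9 members had an unadjusted p under 0.05 (8.24% of all genes), 6 higher and 3 lower in flight, and none passed the adjustment. In the other regions, 4 members in CA, 4 in FCT and 5 in CT had an unadjusted p under 0.05 between FLT-SAL and GC-SAL, beside 6.73%, 5.66% and 5.27% of all genes, and none was called by limma, edgeR or DESeq2.

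Grin1 was higher in flight in all 8 contrasts of flight and ground, 4 regions by 2 treatments, with log2 differences from 0.26 to 0.50 and an unadjusted p under 0.05 in 7 of the 8. In DG its level was 309.1, 306.2 and 320.9 in FLT-SAL and 219.4, 248.5 and 231.1 in GC-SAL, without overlap. With BuOE it was 256.8, 369.0 and 308.0 in flight and 236.8, 226.4 and 243.5 on the ground, again without overlap. In FCT it was 317.3, 323.7 and 301.4 in FLT-BuOE and 247.7, 214.2 and 204.7 in GC-BuOE, which gave the widest difference, 0.50. The narrowest was in CT of saline mice, where FLT-SAL mice had 221.9, 278.2 and 333.0 and GC-SAL mice 240.1, 252.8 and 195.5, which overlapped. None of the 8 passed the adjustment over all genes, with adjusted p-values from 0.135 to 0.999. Of all 15782 genes, 8 were higher in flight with an unadjusted p under 0.05 in at least 7 of the 8 contrasts, and Grin1 was 1 of them. The 4 regions of a mouse are not independent, so the mouse means below are the test.

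Averaged over the 4 regions, Grin1 was 222.7, 236.0 and 208.2 in the GC-SAL mice and 253.4, 297.5 and 302.2 in the FLT-SAL mice. It was 235.3, 236.4 and 223.0 in the GC-BuOE mice and 302.3, 346.7 and 284.6 in the FLT-BuOE mice, so neither pair overlapped. The log2 difference was 0.35 (SE 0.099, adjusted p = 0.0748) with saline and 0.42 (SE 0.099, adjusted p = 0.0281) with BuOE. Both were under the fold threshold, so Grin1 was not called. The adjusted p with BuOE was 0.248 without FLT-BuOE mouse 2, and without GC-BuOE mice 1, 2 and 3 in turn it was 0.0937, 0.103 and 0.251. In the saline pair it ranged from 0.0328 to 0.454 as single mice were left out. In the mean over regions an adjusted p under 0.05 alone was reached by 0.336% of all genes in the BuOE pair. The saline and the BuOE pair share no mice. The mean of both, added after seeing the data, compares 6 flight with 6 ground mice and gave 0.39 (SE 0.070, adjusted p = 3.3e-04), and the adjusted p lay between 1.3e-04 and 0.0036 when single mice were left out. In that mean, 2 of the 41 members had an adjusted p under 0.05, beside 1.43% of all genes, and no member passed the fold threshold, as 0.0507% of all genes did.

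**Figure D5:**
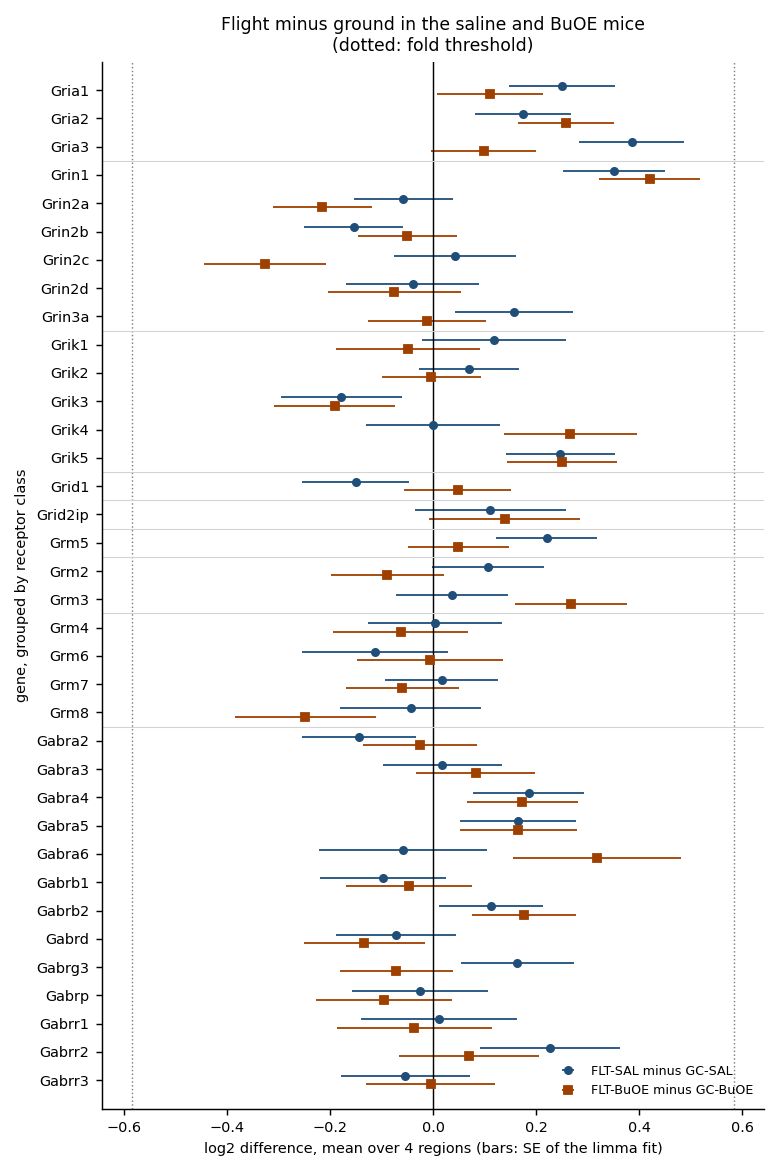
Log2 difference between flight and ground mice, averaged over 4 regions, for 36 of the 41 genes (vertical axis), with circles for saline mice, squares for BuOE mice, bars of 1 SE and dotted lines at the fold threshold. No gene reaches the threshold, and Grin1 lies at 0.35 and 0.42.

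In those mouse means, the 5 members with the smallest p between FLT-SAL and GC-SAL were all higher in flight. Gria3 was 74.9, 85.1 and 72.6 in GC-SAL and 94.2, 109.3 and 101.3 in FLT-SAL, a log2 difference of 0.39 (adjusted p = 0.045, reached by 0.843% of all genes, and under the fold threshold). Its adjusted p rose as far as 0.386 when single mice were left out (FLT-SAL mouse 2). Grin1 is given above. Gria1 was 124.8, 170.6 and 125.8 in GC-SAL and 147.8, 171.2 and 178.6 in FLT-SAL, a difference of 0.25 (adjusted p = 0.386), and its groups overlapped. Groups did not overlap in 10 of 41 members, beside 14.8% of all genes, and 26 members were above 0, beside 53.4% of all genes.

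Some of the 12 marker lists also moved with the flight contrasts in these means. Of 7 GABAergic interneuron markers, 6 were above 0 with a median difference of 0.32 in saline mice, beside 2 of 7 and -0.02 in BuOE mice. Of 8 oligodendrocyte markers, 7 were above 0 with a median of 0.35 in saline mice, beside 5 of 8 and 0.04 in BuOE mice. Of 7 cortical projection neuron markers, 6 were above 0 with a median of 0.19 in BuOE mice, the pair in which Grin1 passed the adjustment, beside 3 of 7 and -0.13 in saline mice. All 7 astrocyte markers were above 0 in saline mice, with a median of 0.09, beside 4 of 7 and 0.04 in BuOE mice. Of 5 microglia markers, 2 were above 0 with a median of -0.05 in saline mice, beside 1 of 5 and -0.12 in BuOE mice. The other lists had medians from -0.15 to 0.05 in these pairs. The part of these lists in the members' differences was not tested.

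The third comparison asked what BuOE changed among flight mice. Between FLT-BuOE and FLT-SAL, no member was called in CA (0.00634% of all genes), DG (0%), FCT (0.0317%), CT (0.0697%) or the mouse means (0.0317%). In the means, 4 members had an unadjusted p under 0.05, beside 7.9% of all genes, and neither edgeR nor DESeq2, run within regions, called a member. Grm8 had the smallest p and was 30.4, 31.4 and 40.2 in FLT-SAL and 22.3, 27.0 and 29.6 in FLT-BuOE, a log2 difference of -0.36 (SE 0.137, adjusted p = 0.459). Grid1, whose protein links synapses through cerebellins, was 38.3, 35.7 and 39.96 in FLT-SAL and 46.2, 45.8 and 43.3 in FLT-BuOE, a difference of 0.24 (adjusted p = 0.550). The differences were -0.27 for Grin2c (adjusted p = 0.561) and -0.21 for Gria3 (adjusted p = 0.618). Gria3 in DG differed by -0.36 (adjusted p = 0.786) between these groups, and its 3 FLT-BuOE mice, at 61.7 to 82.3, were below all FLT-SAL mice. Groups did not overlap there in 11.8% of all genes. Gria3 in DG was picked for the call that rests on the same FLT-SAL values.

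Between GC-BuOE and GC-SAL, 2 members had an unadjusted p under 0.05 in the mouse means, beside 4.41% of all genes, and no member was called there or in any region. Of all genes, 0.00634% were called in FCT and 0% elsewhere. The FLT-SAL and GC-SAL mice enter more than 1 of these contrasts, so the contrasts are not independent of each other.

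Flight effects were also compared with each other. No member passed the test for a flight effect in saline mice that differs between regions (adjusted p under 0.05 in 0.127% of all genes), and 5 members had an unadjusted p under 0.05, beside 4.64% of all genes. No member passed the test for a flight effect that differs with BuOE, in any region or in the mouse means, where 0% to 0.019% of all genes passed, and 2 members had an unadjusted p under 0.05 in the means, beside 6.27% of all genes.

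Of the receptor partners, 1 gene was called in the flight contrasts of saline mice. Camk2b, a kinase subunit of the postsynaptic density, was higher in DG of FLT-SAL than of GC-SAL mice by 0.59 (adjusted p = 0.0175). This was the same region as for Gria3, and 0.266% of all genes were called there. In the mean of both flight contrasts it was not called in DG (0.12% of all genes were), and Homer1, a scaffold protein that binds group I metabotropic receptors, was called lower in flight in CA (-0.60, adjusted p = 0.0451, where 0.158% of all genes were called) and in FCT (-0.69, adjusted p = 0.0153, 0.127%). None of the 14 auxiliary subunits, the 12 GABA scaffold genes, the 5 metabotropic GABA receptor genes and the 16 transporter and synthesis genes was called there or in the mouse means. In the means, 8 of those 16 had an unadjusted p under 0.05 between FLT-SAL and GC-SAL, beside 8.79% of all genes, and 14 were above 0.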

How the data were processed

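RNA was profiled with GeoMx DSP in 48 AOIs of 12 mice, and the mouse was the replicate. Reads went through the GeoMx NGS Pipeline (version 2.3.4), and the authors deposited deduplicated probe counts per AOI for 20175 probes. They also deposited Q3-normalized signal for 15782 genes, in which each AOI is scaled by 1 factor to a common upper quartile. Of those values, 99.98% gave whole counts within 0.02 when unscaled, and 15777 genes matched 1 probe. The deposited tables of the authors' own comparisons hold log2 fold changes and p-values and were not used.

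Log2(Q3 signal + 1) was tested with limma 3.58.1 (trended eBayes) in R 4.3.3 over all genes, with Benjamini-Hochberg adjustment, and genes were called at an adjusted p under 0.05 and a fold above 1.5. Groups were compared within each region and on the mean of the 4 regions of a mouse, and regions were compared with the mouse as a block. The tests of flight by region and of BuOE by flight had no fold threshold. On whole counts, edgeR 4.0.16 (TMM) and DESeq2 1.42.0 were alternatives, beside another pseudocount, a filter on low genes, another centring, leaving out each mouse, GC-SAL mice alone and a replicate block. Background subtraction (the negative-control value taken off, log2(value + 5), values under 0 set to 0) and the mean of both flight contrasts were added after the data were seen. The test scripts were tested on simulated data. An exact permutation test of 3 against 3 mice cannot go below p = 0.1 and was not used. The p-values between groups measure the spread between mice on 1 slide per group. Those between regions, and of flight by region, measure the spread left within mice after the mouse block.

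The members and the lists of partner and marker genes were chosen with earlier results of these data known. Genes named with values were Gria2, Grin1, the member of each class with the widest called regional difference, the 3 widest in each direction per pair of regions, members called between groups, and the 5 with the smallest p in the mean of FLT-SAL minus GC-SAL and of FLT-BuOE minus FLT-SAL. Counts cover all 41 members, of which 5 are not reported by name here. Any other gene given with values was chosen after they were seen. The genome build of the probe design is not given in the sources used here. Positions are from GENCODE vM21 (GRCm38) and promoters from RefSeq (GRCm38.p6), both matched by symbol. Figures were drawn with Python 3.11.15.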

Additional observations from a re-analysis of the deposited data

How the results depend on the processing

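Between regions, 33 of 46 called gene differences kept call and direction under every alternative run, and none reversed. In edgeR 1 was lost, between CA and DG. After the negative-control value was subtracted, the members called were 20 for CA against DG (38.4% of all genes) and 15 for CA against FCT (17.4%). There were 13 for CA against CT (15.4%) and 1 for FCT against CT (0.26%). With the 3 GC-SAL mice alone, 9 were called for DG against FCT and 2 for FCT against CT, and 12 of the 46 calls were lost. Fewer mice entered that fit, and the share of all genes called in it is not given here. For FLT-SAL against GC-SAL in DG, the members called were 0 in the mean of both flight contrasts and ranged from 0 to 1 as single mice were left out. Every other count under every setting, 598 entries in all, stayed within 1.5 times the main count. In each contrast between groups but FLT-SAL minus GC-SAL in DG, that main count was 0. Many of the 598 entries therefore start from 0 and say little about stability.

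Mice of different groups share replicate numbers. The deviations of same-numbered mice correlated at -0.075 to 0.174 (median 0.064), and 2 of 18 pairs exceeded 0.1. Different regions of the same mouse correlated at a median of only 0.024, with 2 of 72 above 0.1. The check therefore cannot tell whether same-numbered mice share more than a number. With the replicate block, the adjusted p was 0.0067 for Gria3 in DG (limma), and for Grin1 in the mean over regions it was 0.0027 with saline and 3.6e-04 with BuOE. The block changed no count of members called, but the adjusted p of Grin1 with saline was under 0.05 only with it. Same-numbered mice of different groups are different animals, so these values rest on a pairing that the design does not give.

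Precision is limited by 3 mice in a group and by background. The negative-control value was highest in CA, where the upper quartile was 1.91 to 2.48 times background.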
